A study of Mus musculus with 400 samples.

Results

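MHC class II antigen presentation was described through 7 genes, Cd74, H2-Aa, H2-Ab1, H2-Eb1, H2-DMa, H2-DMb1 and Ciita, out of 33496 genes counted in single Lgr5-high cells sorted from mouse small intestine. The rule takes the genes by their known role in the pathway and uses no measured value, although the list was drawn up with earlier results of these data known. They were read over the 380 of 400 cells with total counts of at least 10000, and the leukocyte gene Ptprc served as the background. All 7 had a count in at least 10% of the kept cells, the level at which 17217 genes were compared across cells.

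The cells came from Lgr5 GFP/+ mice, in which a green fluorescent protein and a Cre recombinase are placed at the Lgr5 locus, so the sort follows that promoter and each cell has 1 unaltered copy of Lgr5. Crypts of the duodenum and jejunum were dissociated, dead cells were left out by DAPI staining, and the sorted cells were captured one by one on a microfluidic chip, per the labels' protocols. The protocols mention tamoxifen for lineage tracing, but whether these mice received it, how old they were and how many were used is not stated there. All cells carry the same group label, Lgr5-high, and no animal is named, so the population is 1 sample and no test between groups of cells was made. The title of the series sets apart cells with Mex3a, an RNA-binding protein gene, as a slowly dividing subpopulation.

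MHC class II molecules are paired alpha and beta chains on the cell surface that show peptides to CD4 T cells. Cd74, the invariant chain, holds the new pair together and fills its groove on the way to the endosome, where H2-DM exchanges the last fragment of Cd74 for a peptide. Ciita is the coactivator that gathers on the promoters of these genes and switches them on, in dendritic cells, macrophages and B cells as a standing programme and in many other cells, gut epithelium among them, after interferon gamma.

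Total counts of the kept cells ran between 10766 and 70133, with a median of 32112 counts and of 8616 genes per cell. The highest count of any gene in any cell was 36, so the scale is compressed for abundant genes. Levels, ratios, thinning and intervals below take the values as linear counts, so they are not exact fold differences in RNA. Sample titles divide the cells into 10 library sets of 40, of which 36 to 39 cells each were kept, and the spread over these sets is given as technical spread. Of 16 markers of crypt stem cells and epithelium, 15 had a count in at least 90% of the cells, and the epithelial factor Cdx2 in 33.7%.

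The 4 genes that encode chains of the surface molecules and the invariant chain were found in nearly every cell. H2-Ab1, the beta chain of the I-A molecule, had a count in all but 3 of 380 cells, 99.2% (95% Clopper-Pearson interval 97.7 to 99.8). Cd74 had a count in all but 19 cells, 95% (92.3 to 97). H2-Aa, the I-A alpha chain, had a count in all but 21 cells, 94.5% (91.7 to 96.5). H2-Eb1, the beta chain of the I-E molecule, had a count in all but 26 cells, 93.2% (90.1 to 95.5). These intervals cover counting error only, and the lowest bound of the 4 lies above the share of every leukocyte, endothelial and stromal marker measured. The alpha chain of I-E is not among the genes read here, so the I-E pair was not covered.

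The other 3 genes were found in fewer cells. H2-DMa, the alpha chain of the peptide exchanger, had a count in 72.4% of cells (67.6 to 76.8). H2-DMb1, one of its beta chains, had a count in 45% (39.9 to 50.2). Ciita had a count in 93 cells, 24.5% (20.2 to 29.1). Ptprc, which encodes the CD45 phosphatase of blood cells and should be absent from epithelium, had a count in 28.4% of cells (23.9 to 33.2). The share for Ciita does not exceed that of Ptprc, so this comparison does not set it apart from the background. It does exceed the median share of the 50 leukocyte genes measured, 6.32%. Per kilobase of exon Ciita was also above Ptprc, at 1.74 against 0.755 CPM. The variance of the counts over their mean was 3.18 for Ciita and 1.84 for Ptprc. Whether the Ciita counts are background was not tested. The share for H2-DMb1 is above those of all but 5 of the 50 leukocyte genes measured, whose median was 6.32%. The 5 were Blnk, Cx3cr1, Lcp1, Itgae and Ms4a1.

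**Figure D1:**
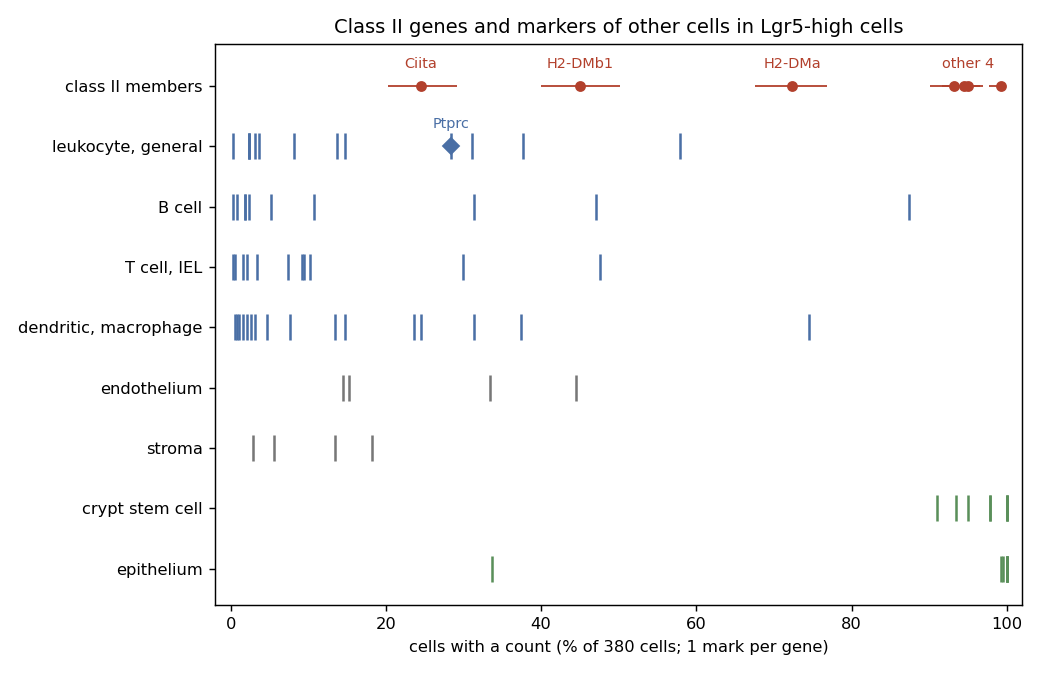
Share of the 380 Lgr5-high cells with a count, in percent, for the 7 class II genes (red, with 95% Clopper-Pearson intervals), markers of leukocytes (blue), of endothelium and stroma (grey) and of crypt stem cells and epithelium (green), 1 mark per gene. Cd74, H2-Aa, H2-Ab1 and H2-Eb1 lie between 93.2% and 99.2%, among the stem cell and epithelial markers, and Ciita at 24.5% lies beside Ptprc at 28.4%.

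Thinning every cell to 19169 counts, which left out 38 shallower cells, kept this order. The shares were then 95.9% for H2-Ab1, 93.9% for Cd74, 89.2% for H2-Aa, 87.7% for H2-Eb1, 63.5% for H2-DMa and 39.2% for H2-DMb1. Ciita stood at 18.4% and Ptprc at 19.6% of the thinned cells.

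The number of counts in a cell separated the genes further. H2-Ab1 had a mean of 7.78 counts per cell, a median of 7 and a highest count of 21. Cd74 had a mean of 6.15, a median of 6 and a highest count of 19. H2-Aa and H2-Eb1 had means of 5.13 and 5.00 counts, both with a median of 4, and reached 17 and 16. These are levels carried by most cells and not by a few. H2-DMa had a mean of 2.46 counts with a median of 1 and a highest count of 14, and H2-DMb1 a mean of 1.18 with a median of 0 and a highest count of 9. Ciita and Ptprc had means of 0.513 and 0.434 counts and highest counts of 9 and 8. At least 5 counts were found in 73.7% of cells for H2-Ab1, 59.2% for Cd74, 47.1% for both H2-Aa and H2-Eb1, 20.3% for H2-DMa, 8.16% for H2-DMb1, 2.63% for Ciita and 0.526% for Ptprc.

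**Figure D2:**
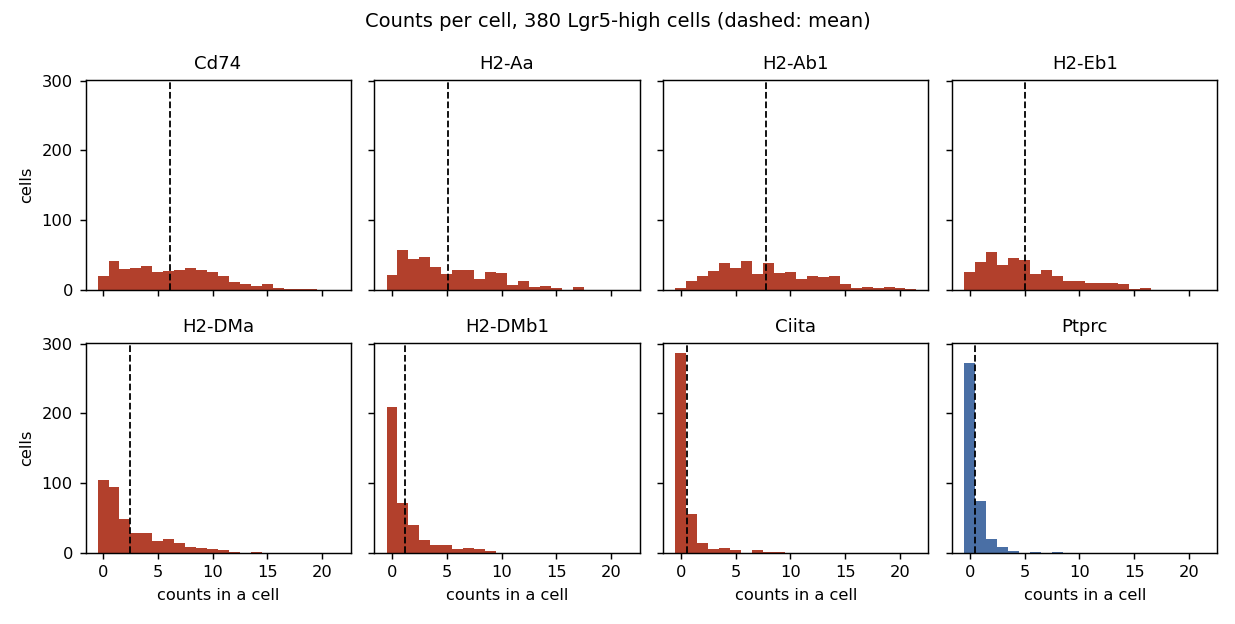
Number of cells (y axis) at each count per cell (x axis) for the 7 class II genes and Ptprc (blue) in 380 Lgr5-high cells, with the mean as a dashed line. The means are 7.78 counts for H2-Ab1 and 6.15 for Cd74, and most cells stand at 0 for Ciita and Ptprc.

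Scaled to CPM, the count divided by the cell's total and set to a common total, the mean over cells was 250.6 CPM for H2-Ab1, 187.5 for Cd74, 160.5 for H2-Aa, 154.9 for H2-Eb1, 76.3 for H2-DMa, 35.7 for H2-DMb1 and 16.6 for Ciita, beside 13.8 for Ptprc. Per kilobase of annotated exon, a scale meant for comparing genes, Cd74 stood highest at 111.7 CPM per kb and H2-Ab1 next at 97.6. H2-Eb1 followed at 79.7, H2-Aa at 42.3, H2-DMa at 22.1, H2-DMb1 at 21.2 and Ciita at 1.74. Ptprc stood at 0.755 CPM per kb. H2-DMa and H2-DMb1 are neighbours whose levels per kb lay closer together than the spread of either over library sets. Whether whole transcripts or their ends were counted is not stated, and end counting would make the division by length unfit. The length joins all annotated exons of a gene and may exceed that of the transcript present. It was 3.80 kb for H2-Aa and 1.94 kb for H2-Eb1, so the order of these genes rests on it.

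The class II genes lie in the H2 complex on chromosome 17, apart from Cd74 and Ciita. On build GRCm38, with the positions of GENCODE M21, H2-Ab1 is at chr17:34257689-34269419 and H2-Eb1 at chr17:34305867-34316674, both on the plus strand, and H2-Aa lies between them on the minus strand at chr17:34282744-34287823. H2-DMa is at chr17:34119541-34139101 and H2-DMb1 at chr17:34153072-34160230, both on the plus strand. Ciita is at chr16:10480059-10528418 on the plus strand, and Ptprc at chr1:138062861-138175708 on the minus strand. Cd74 is at chr18:60803848-60812652 on the plus strand.

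Some of these counts cannot be assigned with certainty. Exons of H2-DMa share 360 bases with exons of Brd2, a chromatin reader gene on the opposite strand that had a count in 92.9% of cells, and whether strand was used in the counting is not stated. Exons of Ciita also share bases with those of Dexi on the opposite strand, which had a count in 35.5% of cells. H2-DMb1 has a near copy, H2-DMb2, with a count in 8.95% of cells, and reads may be split between them.

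Every kept cell had counts of at least 2 of the 7 genes, and 0 of 380 cells had none, which allows a share of up to 0.789% of such cells. A cell held 5.24 of the 7 genes on average, with an SD of 0.322 over the 10 library sets and set means of 4.84 to 5.90. The most common numbers were 5 genes in 36.8% of cells and 6 genes in 33.4%. There were 65 cells with 4 genes, 32 with all 7, 12 with 3 and 4 with 2. Cd74, H2-Aa, H2-Ab1 and H2-Eb1 were found together in 84.7% of cells (80.7 to 88.2), and in 71.9% of the thinned cells.

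The 7 genes summed to a mean of 882 CPM, with an SD of 82.2 over library sets. The lowest cell had 122.4 CPM, the median 821 and the highest 2207. Between the 5th and the 95th percentile the summed level ran between 315.5 and 1591 CPM, and the coefficient of variation over cells was 45.2%. The 38 cells with the most class II counts, 10.0% of the cells, held 20.9% of all class II counts. On this count scale the level was graded across the population, with no group of a few cells holding most of it. The scale is compressed, with no count above 36, which limits the share that a few cells can hold. The variance of the counts over their mean was 2.78 for Cd74, 2.97 for H2-Aa, 2.40 for H2-Ab1 and 2.83 for H2-Eb1, higher than in 84.9%, 90.1%, 75.1% and 82.2% of the genes of like mean count.

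The spread over library sets was smaller, relative to the mean, for the 4 abundant genes than for the others. Over the 10 sets, the mean of H2-Ab1 had a lowest value of 203.4 CPM, a median of 252.2 and a highest of 285.1, and that of Cd74 150.1, 188.5 and 210.8 CPM. H2-Aa had 130.8, 158.7 and 208.05 CPM, and H2-Eb1 117.7, 156.1 and 178.6 CPM. All 10 sets had each of these 4 genes above 100 CPM and Ptprc below 30 CPM, so the order against the background held in every set. H2-DMa had 48.3, 75.9 and 110.1 CPM, H2-DMb1 18.5, 29 and 78.8 CPM, and Ciita 4.13, 16 and 30 CPM. Ptprc had 3.79, 13.2 and 27.3 CPM. Library set 1 had the lowest means of Cd74, H2-Ab1 and H2-Eb1 and the highest means of Ciita and Ptprc. Leaving out 1 set at a time moved the summed level only between 869 and 899 CPM.

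**Figure D3:**
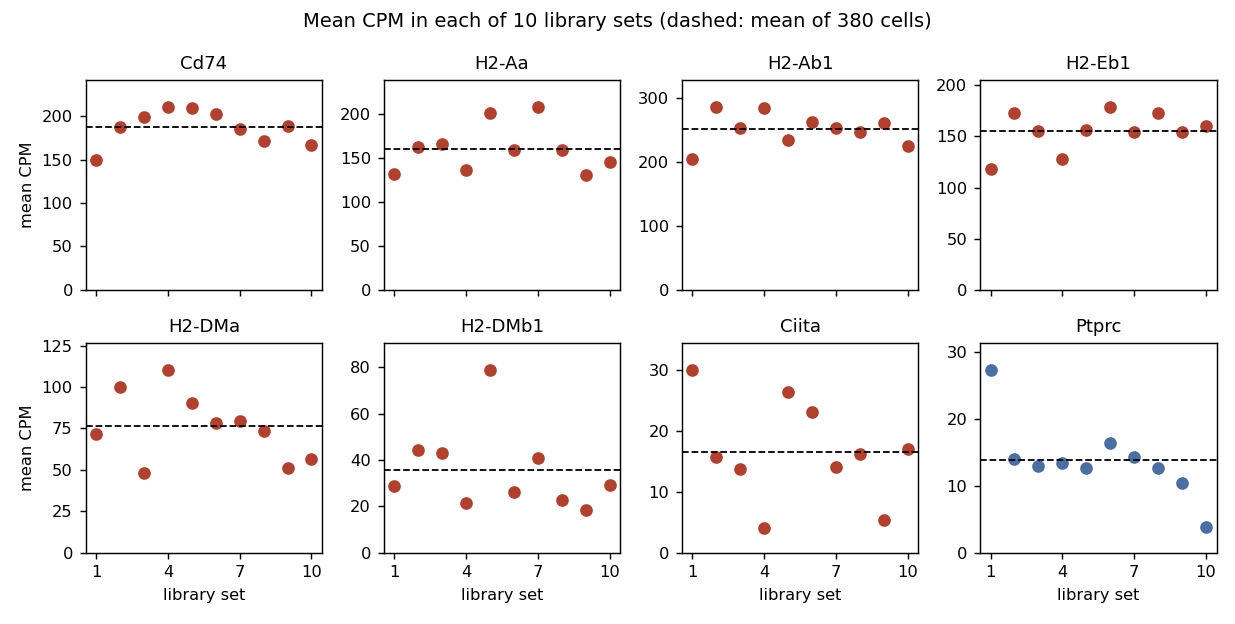
Mean CPM of the 7 class II genes and Ptprc (blue) in each of the 10 library sets, 1 point per set, with the mean over 380 cells as a dashed line and each y axis starting at 0. H2-Ab1 stays between 203.4 and 285.1 CPM, Ptprc between 3.79 and 27.3 CPM, and H2-DMb1 has 1 set at 78.8 CPM.

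Most genes that mark leukocytes had counts in few of these cells. Over the 4 leukocyte lists (general, B cell, T cell with intraepithelial lymphocyte, dendritic cell with macrophage), 30 of 50 measured genes had a count in under 10% of cells and 24 in under 5%, with a median share of 6.32%. Coro1a had a count in 0.263% of cells and Laptm5 in 2.37%, both general leukocyte genes. Cd79a, a signalling chain of the B cell receptor, had a count in 0.789% of cells, and the macrophage complement gene C1qc also in 0.789%. In the B cell and the dendritic cell and macrophage lists, which hold the markers of professional antigen-presenting cells, 15 of 26 genes had a count in under 10% of cells and 11 in more. Among the 11 were Ms4a1 (47.1%) and Zbtb46 (37.4%), a transcription factor of dendritic cells. None of the 50 genes was at 0 in every cell, and 3 reached 50% of cells: Blnk (87.4%), a B cell adaptor, Cx3cr1 (74.5%), a chemokine receptor of macrophages, and Lcp1 (57.9%), an actin bundler. Summed levels over the sets ran between 72.6 and 177.5 CPM for the general list, 148.1 and 252.1 for the B cell list, 46.9 and 112.3 for the T cell list, and 103.7 and 196.7 for the dendritic cell and macrophage list.

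Class II levels were lower in cells with more of these leukocyte genes, and of markers of some other cells. Of the 20 leukocyte genes that passed the level of 10% of cells, 0 had a correlation above 0 with the summed class II level, and the values lay between −0.22 and −0.02 with a median of −0.15. The median over all 17210 other genes compared was −0.02, with 0.15 at the 95th percentile and −0.19 at the 5th. These are Pearson r of log2(CPM + 1) over 380 cells, which share libraries and depth, and they are given without a p-value. The median was −0.15 for 4 endothelial genes and −0.11 for 2 stromal genes, with 0 above 0 in either list, and 0 of 6 Paneth cell genes were above 0. All 20 leukocyte genes had r above 0 with the number of genes counted in a cell, with a median of 0.23, and the summed class II level had r = −0.14 with it. The part of that number in these correlations was not tested.

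The cells with a Ptprc count, 28.4% of all, had lower means of most class II genes than the cells without. The summed level was 797 CPM in cells with Ptprc and 916 CPM in cells without. Cd74 had 164.7 CPM in cells with Ptprc and 196.6 CPM in cells without, a log2 ratio of −0.25 (SD over 10 library sets 0.39). H2-Eb1 had 132.1 and 163.9 CPM in cells with and without Ptprc, a log2 ratio of −0.31 (SD 0.50). H2-Ab1 had 224.2 and 261.1 CPM in the same order, a log2 ratio of −0.22 (SD 0.35), and H2-Aa had 146.1 and 166.2 CPM, a log2 ratio of −0.19 (SD 0.41). Each of these 4 differences is smaller than its spread over sets, and their direction is lower in cells with Ptprc. That spread is over single sets, with at most 17 cells with Ptprc in each, and is not the error of the pooled ratio. H2-Ab1 and H2-Eb1 were above 0 in 2 of 10 sets, Cd74 in 3 and H2-Aa in 4. H2-DMa had 65.2 and 80.6 CPM and H2-DMb1 38 and 34.8 CPM in cells with and without Ptprc.

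Ciita went the other way. It had 26.7 CPM in cells with Ptprc and 12.6 CPM in cells without, a log2 ratio of 1.03 (SD over sets 0.59), above 0 in 9 of 10 sets. It was the 1 member past 1.5-fold higher, beside 21% of all genes compared, and 0 members were past 1.5-fold lower, beside 3.14% of all genes. With so many genes past that fold, 1 member of 7 is near the background. The median log2 ratio was −0.22 for the 7 members and 0.06 for all genes. Cells with Ptprc had a median of 9360 genes and cells without 8374 genes, and all 7 dendritic cell and macrophage genes compared were higher in cells with Ptprc, with a median log2 ratio of 0.89. The part of gene number in the values for Ciita was not tested.

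The genes that Ciita is known to switch on were higher in some cases and lower in others in cells with Ciita. In the 93 cells with a Ciita count, Cd74 had 175.1 CPM, against 191.6 CPM in the other cells. H2-Ab1 had 239.3 CPM in cells with Ciita and 254.3 CPM in cells without, and H2-Aa had 166.1 and 158.7 CPM in the same order. H2-DMb1 had 45.6 CPM in cells with Ciita and 32.5 CPM in cells without, a log2 ratio of 0.48, and H2-DMa had 68.7 and 78.7 CPM, a log2 ratio of −0.19. The median log2 ratio of the other 6 members was −0.06, and that of all genes 0.05. Ptprc had 25.2 CPM in cells with Ciita and 10.1 CPM in cells without, a log2 ratio of 1.23. This split was chosen after its values were seen. With a mean of 0.513 counts per cell, a cell without a Ciita count cannot be called a cell without Ciita.

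**Figure D4:**
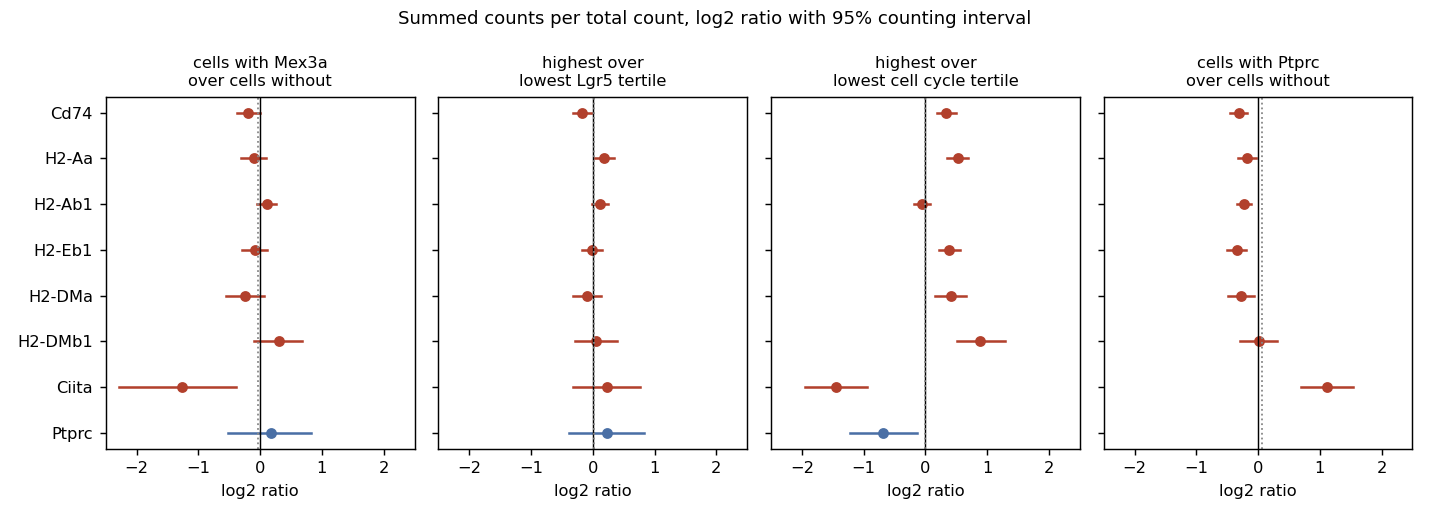
Log2 ratio of summed counts per total count (x axis), with 95% counting intervals, for the 7 class II genes and Ptprc (blue) between cells with and without Mex3a, the highest and lowest tertile of Lgr5, the highest and lowest tertile of the cell cycle genes, and cells with and without Ptprc, with the median of all genes as a dotted line. Cd74, H2-Aa, H2-Ab1, H2-Eb1 and H2-DMa lie below 0 in cells with Ptprc, where Ciita lies at 1.12, and the interval of Ciita is wide in each panel.

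The genes of the surface molecule varied together, weakly. The 6 pairs among Cd74, H2-Aa, H2-Ab1 and H2-Eb1 had a median r of 0.23, between 0.17 and 0.29. Within library sets the median over these pairs was 0.21, and it was above 0 in 10 of 10 sets. Among 729 genes with mean counts in the same range, the median r over all pairs was 0.07 and the 95th percentile 0.23, so the median class II pair stands near that percentile. Over all 21 pairs of the 7 members the median was 0.12, with 19 pairs above 0. With total counts and genes per cell regressed out, an alternative chosen after seeing the data, that median was 0.07. In counts this sparse such values are a description and not evidence of shared control.

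H2-Aa and H2-Eb1, an alpha and a beta chain of different class II molecules, had the highest Pearson r of any pair over all cells, 0.29. Other measures gave another order: by Spearman rho Cd74 with H2-Eb1 was higher, at 0.41 against 0.40, and the median Pearson r within sets was 0.28 for H2-Aa with H2-Ab1, 0.26 for Cd74 with H2-Eb1 and 0.20 for H2-Aa with H2-Eb1. H2-Aa was the gene most like H2-Eb1 among all genes compared, and H2-Eb1 the second most like H2-Aa. Cd74 and H2-Eb1 had r = 0.27. H2-DMa had r of 0.08 to 0.19 with the 4 abundant genes, and its r with the overlapping gene Brd2 was 0.19. H2-DMb1 and H2-DMa had r = 0.17, and H2-DMb1 had r = 0.37 with its near copy H2-DMb2. Ciita had r between −0.04 and 0.05 with the other 6 members and 0.24 with Ptprc.

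**Figure D5:**
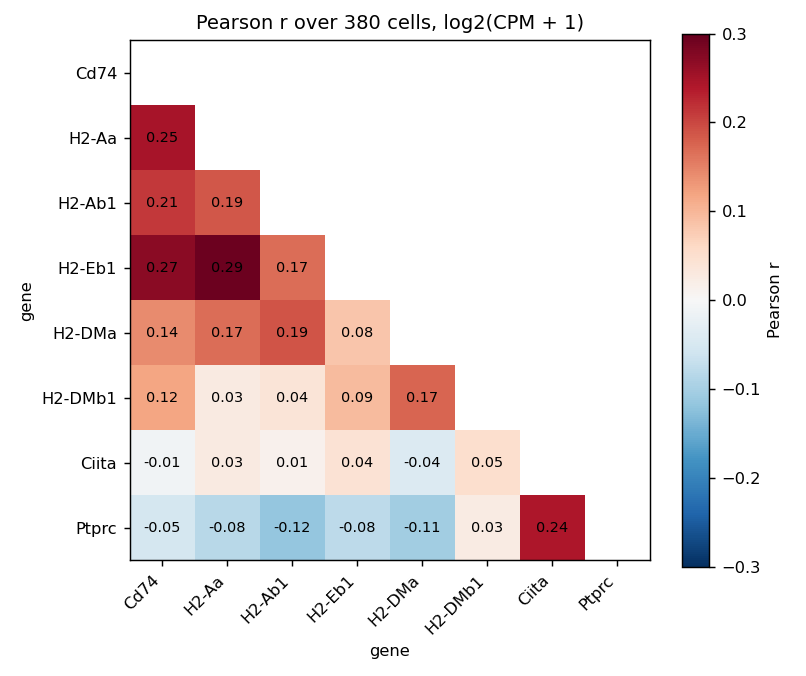
Pearson r of log2(CPM + 1) over 380 cells for each pair of the 7 class II genes and Ptprc, with red above 0 and blue below. The highest pair by this measure is H2-Aa with H2-Eb1 at 0.29, and Ciita is near 0 with the other class II genes and at 0.24 with Ptprc.

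Promoter sequence is shown for class II genes of the H2 complex so that the boxes known to recruit the class II activators can be read, both in H2-Aa and H2-Eb1, which varied together, and in H2-DMb1, which did so less. Of the 7 genes, H2-Aa, H2-Eb1, H2-DMa and H2-DMb1 had a window in the RefSeq table (GRCm38.p6), from 250 bases before the start to 50 after it. The letters TGATTGG of the Y box and TGATGATG or TGACGTCA of the X2 box were searched on both strands, and TGACGTCA reads the same on both. The windows of the 3 genes with matches follow, 5′ to 3′ on the strand of the gene, with the matched letters in capitals.
H2-Aa, chr17:34287774-34288073, minus strand: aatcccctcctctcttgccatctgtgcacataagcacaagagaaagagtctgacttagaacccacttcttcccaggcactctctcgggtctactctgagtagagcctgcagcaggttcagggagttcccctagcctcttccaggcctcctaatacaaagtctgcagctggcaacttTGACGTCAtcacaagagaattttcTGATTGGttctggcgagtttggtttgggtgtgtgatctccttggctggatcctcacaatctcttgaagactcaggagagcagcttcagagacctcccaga
H2-Eb1, chr17:34305617-34305916, plus strand: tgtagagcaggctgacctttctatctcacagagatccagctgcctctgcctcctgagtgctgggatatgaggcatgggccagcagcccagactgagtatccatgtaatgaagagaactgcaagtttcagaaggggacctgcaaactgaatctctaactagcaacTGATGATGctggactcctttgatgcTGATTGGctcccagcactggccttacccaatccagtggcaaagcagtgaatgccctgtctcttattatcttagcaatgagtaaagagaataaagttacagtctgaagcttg
H2-DMb1, chr17:34152941-34153240, plus strand: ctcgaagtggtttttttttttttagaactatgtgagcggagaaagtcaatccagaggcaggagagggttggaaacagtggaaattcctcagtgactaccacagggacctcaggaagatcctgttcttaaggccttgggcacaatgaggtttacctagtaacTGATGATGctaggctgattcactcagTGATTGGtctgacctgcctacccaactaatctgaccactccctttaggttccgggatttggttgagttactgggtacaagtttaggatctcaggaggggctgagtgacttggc

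All 3 windows held 1 X2 match followed by 1 Y match on the strand of the gene. The bases between them numbered 16 in H2-Aa, 17 in H2-Eb1 and 18 in H2-DMb1. H2-Aa held the form TGACGTCA, and H2-Eb1 and H2-DMb1 the form TGATGATG. Of 32851 windows of the same length in the table, 7.82% held TGATTGG, 1.44% TGATGATG, 1.79% TGACGTCA, and 0.24% the Y letters with either X2 form. Both windows of H2-DMa held 0 matches, which says only that these letters are not in them. H2-Aa and H2-Eb1, whose boxes are of different X2 forms, had r = 0.29, and H2-DMb1 had r of 0.03 and 0.09 with them. H2-DMb1 was sparser, with a mean of 1.18 counts per cell against 5.13 for H2-Aa and 5.00 for H2-Eb1. Whether the boxes bear on these correlations was not tested.

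The genes whose levels were most like the summed class II level were led by a near copy of a gene of the interferon-induced proteasome activator. Psme2b had the highest r with the sum, 0.37, and Gm12185 the next, 0.37. Psme2b is a near copy of Psme2, a subunit of that activator, on another chromosome, and Gm12185 and Psme2b had r = 0.92 with each other, so their counts are not independent. Psme2 itself had r = 0.23. All 10 genes named here had r below 0 with the number of genes counted in a cell, between −0.57 for Rps2 and −0.13 for Psme2b, the direction that the summed class II level also had. The next genes were Gpx1 (0.34), a glutathione peroxidase, Ndufb9 (0.33), a subunit of respiratory complex I, and Banf1 (0.31), a chromatin-binding protein. Rps2 and Rps27l, which encode a ribosomal protein and a ribosomal protein relative, had 0.30 each, Hsp90b1, the chaperone of the endoplasmic reticulum, 0.29, Eprs, a tRNA synthetase, 0.29, and the pseudogene Gm4149 0.29.

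Among single members, Cd74 was most like Rps2-ps10 (0.36), Rps19-ps6 (0.36) and Rpl36-ps2 (0.36), ribosomal protein pseudogenes whose counts may come from their parent genes. H2-Aa was most like Snrpe (0.32), a splicing protein gene, and H2-Ab1 most like Ndufb9 (0.29) and Gpx2 (0.28). H2-DMb1 was most like Snrnp200 (0.24), a splicing helicase gene. Ciita was most like F930017D23Rik (0.28) and Il6ra (0.28), a receptor for interleukin 6.

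Class I genes were widespread as well. Of 16 measured genes of the class I pathway, 10 had a count in at least 90% of cells, with a median share of 94.6%. B2m, the light chain of class I molecules, had a count in 100% of cells and r = 0.25 with the summed class II level. H2-K1, a class I heavy chain, had a count in 99.2% and r = 0.27. Of the 15 genes compared, 14 had r above 0, with a median of 0.13, beside −0.02 over all genes. Other lists of abundant genes had like values, with a median of 0.14 and 7 of 8 above 0 for epithelium and 0.11 and 7 of 8 above 0 for crypt stem cells. Tap2, a peptide transporter subunit, had a count in 5.79% and Nlrc5, the class I coactivator, in 27.4% of cells.

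Genes that act beside class II in antigen-presenting cells were mixed. Of 14 measured accessory genes, the protease Ctsb had a count in 100% of cells and Ifi30, a thiol reductase that opens antigens, in 86.1%. H2-Oa and H2-Ob, the chains of the H2-DM inhibitor of B cells, had counts in 0.263% and 2.63% of cells. The accessory genes had a median r of 0.01 with the summed level, with 5 of 10 above 0. Of 10 costimulation genes, Lgals9 had a count in 100% of cells and Cd80 in 48.4%, and the others measured had lower shares, with Cd70 at 0.263% and Cd274 at 5.26%. Their median share was 10.9%, and 5 of the 10 had a count in at least 10% of cells. In counts this sparse a low share does not show that a gene is absent.

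Factors upstream of class II were counted at intermediate levels. The 8 genes of the enhanceosome, the complex that Ciita joins on class II promoters, had a median share of 56.2%, with Ctcf at 94.2%, Creb1 at 86.8%, Rfx5 at 18.7% and Rfxank at 26.3%. Of 20 genes of the interferon gamma pathway, 11 had a count in at least 50% of cells, with Jak1 at 89.7%, Irf2 at 88.4%, Socs1 at 4.21% and Gbp6 at 4.47%. The interferon list had a median r of 0.05 with the summed class II level, with 10 of 13 above 0.

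Between the 47 cells with Mex3a and the cells without, class II levels differed by less than their spread over library sets. Cd74 had 165.3 CPM in cells with Mex3a and 190.7 CPM in cells without, a log2 ratio of −0.20 (SD over 9 sets 0.69). H2-Ab1 had 268.1 CPM in cells with Mex3a and 248.2 CPM in cells without, a log2 ratio of 0.11 (SD 0.29). H2-Aa had 149.6 and 162.02 CPM in the same order, and H2-Eb1 149.7 and 155.6 CPM. H2-DMa had 69.6 CPM in cells with Mex3a and 77.2 CPM in cells without, and H2-DMb1 41.7 and 34.8 CPM in the same order. The median log2 ratio of the 7 members was −0.11, with an SD of 0.36 over sets, and that of all genes −0.03. None of the members was past 1.5-fold higher, beside 4.33% of all genes, and Ciita was the 1 member past 1.5-fold lower, beside 11.3% of all genes. Ciita had 10.0 CPM in cells with Mex3a and 17.5 CPM in cells without, from 11 counts in all in the cells with Mex3a, a log2 ratio of −0.75 (SD 2.16), which is smaller than its spread.

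Between tertiles of Lgr5, the receptor gene the cells were sorted on, class II levels also differed by less than their spread over library sets. The highest tertile of cells by Lgr5 had a summed level of 899 CPM, and the lowest tertile 901 CPM. The median log2 ratio was 0.08 for the 7 members (SD over sets 0.30) and 0.02 for all genes. None of the members was past 1.5-fold higher, beside 6.82% of all genes, and none was past 1.5-fold lower, beside 4.77%. Cd74 had 170.5 CPM in the highest tertile and 201.3 CPM in the lowest, and H2-Aa 175.2 CPM in the highest and 158.3 CPM in the lowest.

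Cells highest in cell cycle genes had higher means of most class II genes, by less than the spread over library sets. The highest tertile had a summed level of 932 CPM, and the lowest 791 CPM. H2-Aa had 177.9 CPM in the highest tertile and 132.3 CPM in the lowest, a log2 ratio of 0.42 (SD over 10 sets 0.59). H2-Eb1 had 172.2 CPM in the highest tertile and 130.7 CPM in the lowest, a log2 ratio of 0.40 (SD 0.52), above 0 in 8 of 10 sets. Cd74 had 202.4 CPM in the highest tertile and 155.7 CPM in the lowest, a log2 ratio of 0.38 (SD 0.55), above 0 in 9 of 10 sets. H2-Ab1 had 236.8 CPM in the highest tertile and 257.8 CPM in the lowest, a log2 ratio of −0.12 (SD 0.34). The median over the 7 members was 0.40, with an SD of 0.55 over sets, beside −0.01 for all genes.

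Of the 7 members, H2-DMb1 was past 1.5-fold higher in the highest cell cycle tertile, beside 12.6% of all genes, with 44.6 CPM in the highest and 23.2 CPM in the lowest. Ciita was past 1.5-fold lower, beside 28.5% of all genes, with 11.3 CPM in the highest and 28.7 CPM in the lowest. Both ratios are smaller than their spread over sets, 1.41 for H2-DMb1 and 2.39 for Ciita. The tertiles differ in depth, with median totals of 37987 counts in the highest and 25708 in the lowest. All 20 leukocyte genes compared were lower in the highest tertile, and 14 of 15 class I genes were higher, with a median log2 ratio of 0.21. Thinning all cells to 1 depth gave a median of 0.44 for the members, beside 0.40 at full depth. That median does not speak for H2-DMb1, whose log2 ratio ran between 0.44 and 2.07 over the alternative settings. The lowest of these, 0.44, equals the median of the members after thinning. The call of H2-DMb1 past 1.5-fold was therefore not kept in all settings. The part of the leukocyte genes in these differences was not tested.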

How the data were processed

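RNA of 400 single sorted cells was counted per gene. The deposited table held whole-number counts, not normalized, on build GRCm38.p4 as the submitters' processing notes name it. Aligner, counter, strand setting and any molecular identifiers: not given in the sources used here. Of the gene identifiers, 33219 matched GENCODE M21, 25822 of them with the same version.

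Cells with at least 10000 counts were kept (380 of 400). Doublets were not removed. All library sets use the same 40 barcode numbers, so a cell is named by set and barcode, and 0 pairs of cells had identical counts. CPM was computed from all counts of a cell, and ratios are log2 of mean CPM plus a pseudocount of 1 CPM, unless summed counts are named. Past 1.5-fold was the call rule. Classes needed 3 cells in a library set to give that set a value. The SD over sets of a ratio is the spread of such single-set values, each from few cells, and not the error of the pooled ratio. No set held more than 7 cells with Mex3a. Thinning drew 19169 counts per cell, the 10th percentile of kept totals, and left out 38 shallower cells. Cell cycle tertiles rest on the mean log2(CPM + 1) of an S phase and a G2 and M phase list of 20 genes each.

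No p-value was computed, because cells are not replicates and all cells are 1 sample. Intervals are exact (Clopper-Pearson for shares, conditional binomial for ratios of summed counts) at 95%, cover counting error only, and need independent counts.

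Named genes are the 7 members and Ptprc, the lowest and highest genes of each list, the 10 genes most like the summed level and up to 3 per member. H2-K1, Psme2, Brd2, Dexi and H2-DMb2 were named after their values were seen. The members and lists were chosen with earlier results of these data known. Python 3.11.15, numpy 2.4.6, scipy 1.17.1 and pandas 2.3.3 were used, and the scripts were tested on simulated data.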

Additional observations from a re-analysis of the deposited data

Results flagged for a closer look

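Of 17 series of values over the 10 library sets, 3 had a set far from the other 9, and chance flags about 1 in 20. The share of cells with H2-Ab1 was lowest in library set 3, at 94.9%, where the next set had 97.3%. The median set had 100%, and only 3 cells in all had no H2-Ab1 count. The share of cells with H2-Eb1 was lowest in library set 1, at 73.7%, where the next set had 92.3%. That set also had the lowest mean level of H2-Eb1, Cd74 and H2-Ab1. The mean level of H2-DMb1 was highest in library set 5, at 78.8 CPM, where the next set had 44.4 CPM.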

How the results depend on the processing

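Over the 7 main values, all but 3 alternative values moved by less than the spread over library sets, and none changed sign past the call rule. Many alternatives leave out 1 of the 10 sets, which can shift a mean or share by only a part of that spread. Some cannot change a value at all, such as another scaling for a share of cells. Counts of values that stayed the same, here and for single genes, are therefore not a measure of robustness. The number of class II genes per cell was 4.88 after thinning. The summed level was 1017 CPM in a subset of 130 cells, higher than the 882 CPM of all cells. These 130 cells had at most 1 count over the general leukocyte list without Ptprc. The B cell, T cell and dendritic cell and macrophage lists were not used to choose them. With a gate of at least 2 Ptprc counts, which 33 cells passed, the median ratio of the members against cells without Ptprc was −0.47. Of 818 alternative values for single genes, 808 stayed within that spread and 2 reversed. Both are Ciita in the 130 cells with at most 1 count over the general leukocyte list without Ptprc. The log2 ratios were 0.26 between cells with and without Mex3a and 0.20 between the cell cycle tertiles, and the cause was not tested. Leaving out 1 library set at a time gave medians of −0.27 to −0.17 for the Ptprc split, −0.19 to −0.04 for Mex3a, −0.02 to 0.12 for Lgr5 and 0.31 to 0.50 for the cell cycle, and 0.10 to 0.14 for the pairwise r. Regressing total counts and genes per cell out, an alternative chosen after seeing the data, gave a median pairwise r of 0.07. Within library sets, the median ratio of the members was above 0 in 2 of 10 sets for Ptprc, 3 of 9 for Mex3a, 6 of 10 for Lgr5 and 7 of 10 for the cell cycle. Thinning lowered the shares of H2-DMa to 63.5%, H2-DMb1 to 39.2% and Ciita to 18.4%, and counts reach at most 36.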
